A study of Mus musculus with 2 samples.

Results

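The genes described here are 10 components of the Notch pathway: the receptors Notch1, Notch3 and Notch4, the ligands Dll4, Jag1 and Jag2, the DNA-binding effector Rbpj and the target genes Hey1, Hey2 and Hes1. They were chosen by name with earlier results of these data known, and all 10 were found among the 31055 features counted in both libraries. The study asked how tumor blood endothelial cells (BECs) take on capillary or venular identity, with COUP-TFII, encoded by Nr2f2, as the factor of interest. BECs were sorted from orthotopic tumors of wild-type (WT) female C57BL6 mice that were 6 weeks old when they received 100000 tumor cells, and the tumors were digested 10 days later. KPC is a pancreatic and PyMT a mammary cancer line, and each tumor model had 1 droplet-based single-cell library, where counts are of unique molecular identifiers (UMIs), 1 per captured transcript. Cells positive for CD45, EpCAM, Ter119 or podoplanin, or stained by Annexin V, were excluded before or during the sort, and how many mice were pooled is not stated. With 1 library per tumor model there was no replicate check, so no test was run, and tumor model, library and mice cannot be told apart.

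Notch receptors are activated when a ligand on a neighboring cell binds them. Proteolytic cleavage, completed by the gamma-secretase complex, frees the intracellular domain, which enters the nucleus, joins RBPJ and switches on targets such as the Hes and Hey repressors. In blood vessels the pathway is known for arterial specification and for restraining the number of sprouting tip cells through DLL4, and NOTCH3 is the receptor of vascular mural cells. COUP-TFII is known as a repressor of Notch signaling in veins.

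Barcodes that held 500 or more genes and had less than 10% of UMIs from mitochondrial genes were sorted into classes by UMIs of a few marker genes, none of them a Notch gene, in a fixed order. The gates were Krt8 and Krt18 for tumor cells (5 or more UMIs), Col1a1 and Col1a2 for fibroblasts (10), Mmrn1 and Prox1 for lymphatic cells (3), Rgs5 (5) with Higd1b (1) for pericytes, Ackr1 and Selp for venules (3), Gja5 and Sema3g for arteries (2), Apln and Angpt2 for tip cells (3) and Car4 and Cd300lg for capillaries (2). Of 9591 KPC and 11744 PyMT cells kept, 104 and 126 were artery cells, 1296 and 2600 capillary cells, 1300 and 1991 tip cells, 640 and 361 venule cells, 802 and 633 lymphatic cells, and 119 and 23 pericytes, while 4093 and 5603 met no gate. The libraries held 44441942 (KPC) and 55547926 (PyMT) UMIs, with median UMIs per kept cell of 3141 and 3978, and 151 kept barcodes occurred in both. Markers outside the gates gave artery cells 5356 CPM (counts per 1000000 UMIs of the class) of 5 summed artery genes in KPC and 3500 CPM in PyMT, against 371 and 193 CPM in capillary cells. Venule cells had 4226 and 3502 CPM of 5 summed venule genes, against 997 and 1417 CPM in capillary cells. Tip cells had 1274 and 769 CPM of 5 summed tip genes, against 568 and 297 CPM in capillary cells. Capillary cells had 12462 and 4803 CPM of 4 summed capillary genes, against 7676 and 4005 CPM in cells of no gate. In PyMT these genes were also at 3955 CPM in venule, 3554 CPM in tip and 10659 CPM in pericyte-gated cells. They thus set capillary cells apart less in PyMT than in KPC. The PyMT cells of the tumor gate held 40.1 CPM of 4 summed epithelial genes, against 4451 CPM in KPC, so they are called Krt8/Krt18-gated cells below. Pericyte-gated cells also carried 2011 (KPC) and 3150 CPM (PyMT) of 5 summed blood endothelial genes, against 3895 and 2879 CPM in capillary cells. All intervals given are 95% and cover counting error only.

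Dll4 (ENSMUSG00000027314) lies on chromosome 2 from 119325784 to 119335962 in the GENCODE M21 annotation of GRCm38, and Notch3 (ENSMUSG00000038146) on chromosome 17 from 32120820 to 32166852. Hey2 (ENSMUSG00000019789) lies on chromosome 10 from 30832359 to 30842801. The other protein-coding members are Notch1 (ENSMUSG00000026923, chromosome 2, 26457903 to 26516663), Notch4 (ENSMUSG00000015468, chromosome 17, 34564268 to 34588503), Jag1 (ENSMUSG00000027276, chromosome 2, 137081456 to 137116644), Jag2 (ENSMUSG00000002799, chromosome 12, 112907819 to 112929776), Hey1 (ENSMUSG00000040289, chromosome 3, 8663359 to 8667256), Hes1 (ENSMUSG00000022528, chromosome 16, 30064384 to 30067796) and Rbpj (ENSMUSG00000039191, chromosome 5, 53466152 to 53657362). RefSeq promoters (GRCm38.p6, the 250 bases before the start) matched 8 of the 10 members, all but Hey1 and Hes1. Those of Dll4, Notch3 and Hey2 are printed 5′ to 3′ on the gene's strand because these members have different patterns in the results: Dll4 was found in all blood endothelial classes and highest in artery cells, Notch3 stood out in pericytes, and Hey2 was found in few cells of any class. Capitals mark the RBPJ core motif TGGGAA or its reverse complement TTCCCA.
Dll4 promoter, chr2:119325534-119325783, plus strand: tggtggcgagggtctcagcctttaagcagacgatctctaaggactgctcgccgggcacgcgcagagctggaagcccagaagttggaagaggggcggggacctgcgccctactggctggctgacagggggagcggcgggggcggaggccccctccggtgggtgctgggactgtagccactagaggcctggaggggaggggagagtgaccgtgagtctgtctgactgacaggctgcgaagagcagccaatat
Notch3 promoter, chr17:32166891-32167140, minus strand: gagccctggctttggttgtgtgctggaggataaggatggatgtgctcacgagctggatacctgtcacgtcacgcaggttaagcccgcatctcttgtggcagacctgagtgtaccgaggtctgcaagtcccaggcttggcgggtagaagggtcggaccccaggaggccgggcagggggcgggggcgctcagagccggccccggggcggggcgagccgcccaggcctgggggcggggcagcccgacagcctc
Hey2 promoter, chr10:30842784-30843033, minus strand: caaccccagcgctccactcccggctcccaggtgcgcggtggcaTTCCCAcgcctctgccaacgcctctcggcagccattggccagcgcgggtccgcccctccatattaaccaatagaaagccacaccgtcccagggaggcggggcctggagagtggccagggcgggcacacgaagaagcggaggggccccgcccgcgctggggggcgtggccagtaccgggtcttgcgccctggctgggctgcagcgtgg
The motif, searched on both strands, stood in the windows of 2 of the 8 matched members, Hey2 and Rbpj, and in 21.6% of all 32851 windows of this length. The longer motif GTGGGAA, which contains it, stood only in the Hey2 window among the members, and in 5.42% of all windows. The windows of Dll4, Jag1, Jag2, Notch1, Notch3 and Notch4 did not hold these letters.

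Ligands and the target Hey1 were higher in artery cells than in capillary cells of both tumors. Jag1, a ligand that vessel walls use between endothelial and mural cells, was at 193 CPM (interval 148 to 247) in KPC artery cells against 16.3 (12.3 to 21.0) in KPC capillary cells. In PyMT it was at 207 CPM (169 to 252) against 22.4 (19.9 to 25.2). The log2 ratio of artery over capillary cells was 3.57 (3.03 to 4.11) in KPC and 3.21 (2.87 to 3.54) in PyMT, and Jag1 had the widest ratio of the members tested in this comparison. Outside artery cells, Jag1 stayed at or below 36.2 CPM in the capillary, tip, venule and lymphatic cells of both libraries.

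Dll4, the ligand that endothelial cells present to their neighbors, was at 267 CPM (214 to 330) in KPC and 256 CPM (213 to 305) in PyMT artery cells. Capillary cells held 124 CPM (113 to 136) and 101 CPM (95.2 to 106), tip cells 126 (119 to 134) and 119 (113 to 125), and cells of no gate 127 (121 to 134) and 127 (122 to 132). Artery cells thus held more Dll4 than these 3 classes in both libraries, and in PyMT the tip level was also above the capillary level. The log2 ratio of artery over capillary cells was 1.11 (0.76 to 1.44) in KPC and 1.35 (1.07 to 1.61) in PyMT.

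Jag2, the third ligand, followed Dll4. It was at 118 CPM (83.6 to 162) in KPC and 69.7 CPM (48.3 to 97.4) in PyMT artery cells, against 45.7 (38.9 to 53.3) and 23.7 (21.1 to 26.5) in capillary cells. The log2 ratios were 1.37 (0.82 to 1.89) and 1.56 (1.002 to 2.07).

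Hey1, a transcriptional repressor induced by Notch, was at 323 CPM (264 to 392) in KPC and 363 CPM (311 to 421) in PyMT artery cells. Capillary cells held 82.9 CPM (73.8 to 93.0) and 60.2 CPM (55.97 to 64.6), so the log2 ratio was 1.96 (1.63 to 2.29) in KPC and 2.59 (2.35 to 2.83) in PyMT. Below the artery cells, capillary, tip and venule cells followed in this order in both libraries, with no overlap between the intervals of these neighbors. Cells of no gate held 87.6 CPM (82.3 to 93.3) in KPC, overlapping the capillary interval. In PyMT they held 88.6 CPM (84.6 to 92.7), above the capillary interval. Lymphatic cells were at 25.7 CPM (20.7 to 31.6) and 28.5 CPM (22.4 to 35.7). Tip cells held 33.4 CPM (29.6 to 37.5) and 37.6 CPM (34.3 to 41.1), and venule cells 9.56 CPM (6.35 to 13.8) and 12.6 CPM (7.61 to 19.7). For Hey1 the venule over artery ratio (log2) was -5.08 (-5.74 to -4.47) in KPC and -4.84 (-5.61 to -4.16) in PyMT.

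The receptors Notch1 and Notch4 had artery over capillary ratios under 2-fold. Notch4, an endothelial receptor, was at 106 CPM (73.2 to 148) against 57.4 (49.9 to 65.9) in KPC and at 90.2 CPM (65.6 to 121) against 48.9 (45.1 to 52.9) in PyMT. Its log2 ratios were 0.88 (0.31 to 1.41) and 0.88 (0.41 to 1.33), with intervals that overlapped those of Dll4 and Jag2. Notch1 was at 152 CPM (113 to 201) against 117 (106 to 129) in KPC, where the intervals overlapped. In PyMT it was at 117 CPM (88.5 to 151) against 72.3 (67.7 to 77.2), a log2 ratio of 0.69 (0.28 to 1.08).

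Hes1 had artery over capillary ratios of opposite sign in the libraries, both with intervals that held 0. Hes1, a target gene that many other signals also induce, had log2 ratios of artery over capillary of 0.17 (-0.23 to 0.55) in KPC and -0.38 (-0.84 to 0.05) in PyMT. Its level was 193 CPM (148 to 247) in KPC artery cells and 92.3 CPM (67.3 to 123) in PyMT artery cells. Rbpj, the effector shared by all receptors, was at 31.1 CPM (14.9 to 57.2) and 32.8 CPM (18.8 to 53.3) in artery cells, resting on 10 and 16 UMIs, against 22.7 and 17.3 CPM in capillary cells. Its log2 ratios were 0.45 (-0.66 to 1.41) in KPC and 0.92 (0.09 to 1.66) in PyMT.

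Counted by a fixed rule, a member was called where it differed by 2-fold or more (a log2 ratio past 1) in the same direction in both libraries, among genes with at least 50 UMIs over both classes in each library. In artery over capillary cells 8 members could be tested this way, Notch3 and Hey2 having too few UMIs, and 4 were called higher (Dll4, Jag1, Jag2, Hey1) and 0 lower, against 2.35% of 7197 genes called higher and 2.07% lower. Their median log2 ratio was 0.99 in KPC and 1.14 in PyMT, beside -0.05 and -0.0004 over all genes tested. The members were chosen with earlier results of these data known, so the counts here and below are a description. In artery over tip cells the same 4 were higher and 0 lower, against 4.32% and 4.61% of 8833 genes, with medians of 1.04 and 1.04. Jag1 had log2 ratios of artery over tip of 2.41 (1.99 to 2.81) and 3.32 (2.98 to 3.66), and Hey1 of 3.27 (2.94 to 3.60) and 3.27 (3.02 to 3.52). When cells were first thinned to 2000 UMIs and gated again, which left 43 and 68 artery cells, 1 member was called higher over capillary cells. For that setting no share of all genes is given. The log2 ratios in that setting were 1.28 and 0.93 for Dll4, 4.78 and 3.91 for Jag1, 1.55 and 2.10 for Jag2 and 2.30 and 2.73 for Hey1, so their direction did not change. Jag1, Jag2 and Hey1 stayed past 2-fold in both libraries, so those of them not called lacked the minimum of 50 UMIs. Dll4 was under 2-fold in PyMT.

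**Figure D1:**
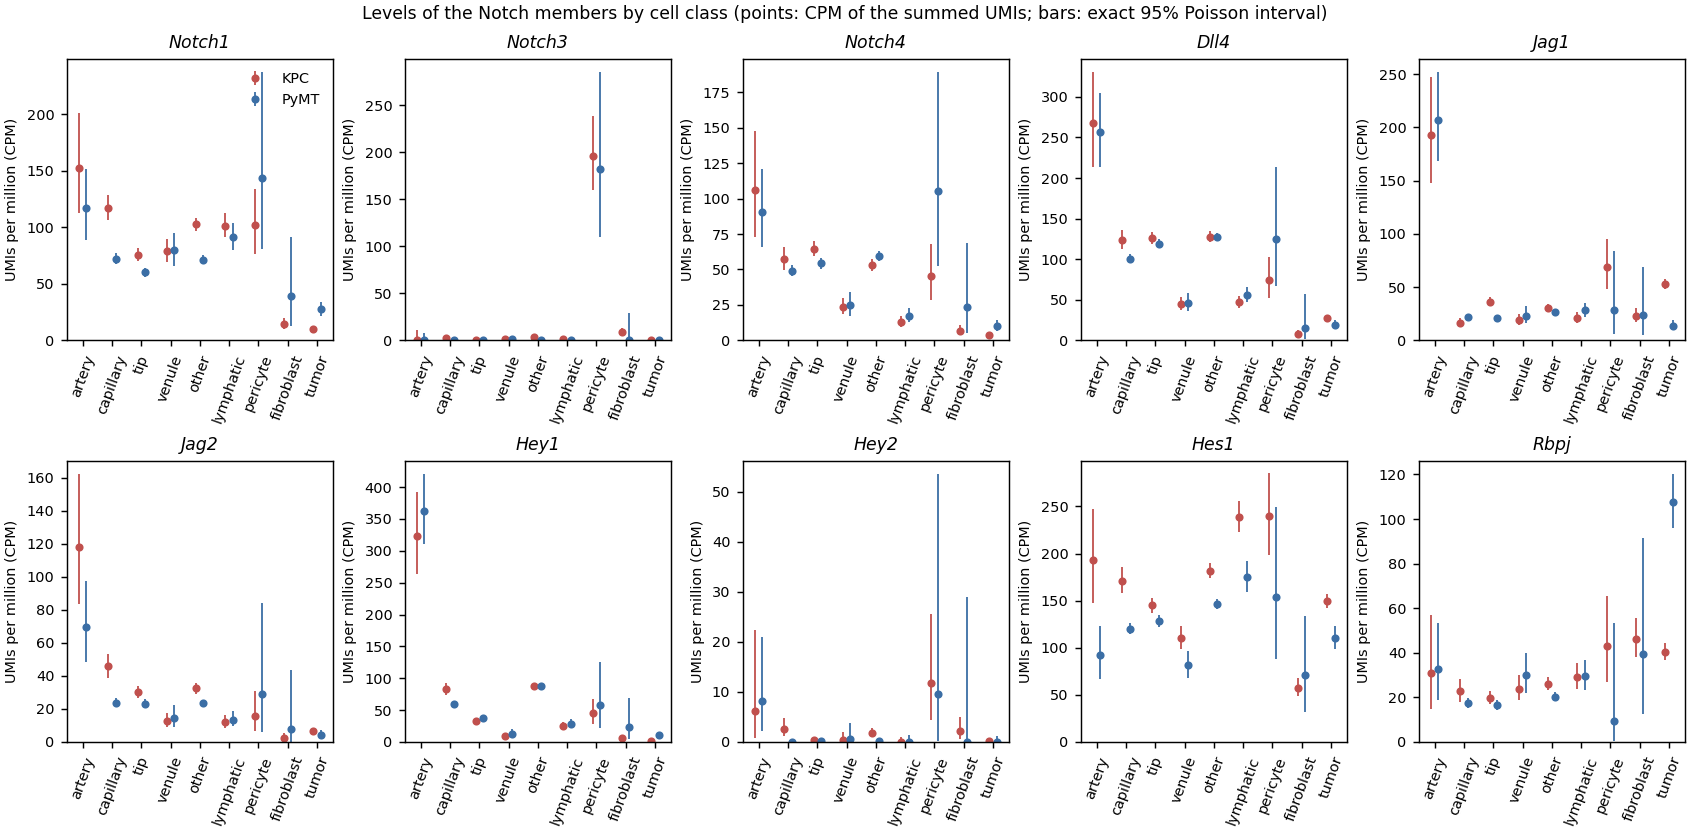
Levels of the 10 members in 9 cell classes (x axis) in CPM of the summed UMIs (y axis, a separate linear scale per gene) for KPC (red) and PyMT (blue), where points are the level and bars the exact 95% Poisson interval. Dll4, Jag1, Jag2 and Hey1 stand highest in artery cells of both libraries, and Notch3 stands apart in pericytes at 196 and 182 CPM.

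Shares of cells with a UMI followed the levels. After each cell was thinned to 2000 UMIs, with shallower cells left out (37 artery and 699 capillary cells in KPC, 19 and 230 in PyMT), Hey1 was found in 43.3% (31.2 to 55.96) of KPC artery cells and 14.7% (11.99 to 17.8) of capillary cells. In PyMT these shares were 50.5% (40.6 to 60.3) and 9.87% (8.70 to 11.1). Jag1 was found in 31.3% (20.6 to 43.8) of KPC artery cells against 3.02% (1.80 to 4.72) of capillary cells, and in 31.8% (23.1 to 41.5) against 4.14% (3.37 to 5.02) in PyMT. Dll4 was found in 40.3% (28.5 to 53.0) against 22.1% (18.8 to 25.7) in KPC and in 30.8% (22.3 to 40.5) against 17.6% (16.0 to 19.1) in PyMT. For these 3 members the artery interval lay above the capillary interval in both libraries, and for no other member did it do so. How many of all genes would pass this rule was not computed. Unthinned, the Hey1 shares were 54.8% against 15.1% in KPC and 63.5% against 19.4% in PyMT. The share of Krt8/Krt18-gated cells with a UMI after thinning was 0.51% (KPC) and 1.59% (PyMT) for Hey1 and 5.08% and 1.86% for Dll4. Their unthinned median depths were 12688.5 and 6939 UMIs, beside 2492 and 3439 UMIs in artery cells. In KPC they were taken as cells that should lack endothelial transcripts. The PyMT cells of this gate held few epithelial transcripts and 465 CPM of 5 summed blood endothelial genes. Their identity is not known, so their shares cannot serve as such a background. Jag1 in KPC Krt8/Krt18-gated cells reached 7.61% after thinning and 52.7 CPM.

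**Figure D2:**
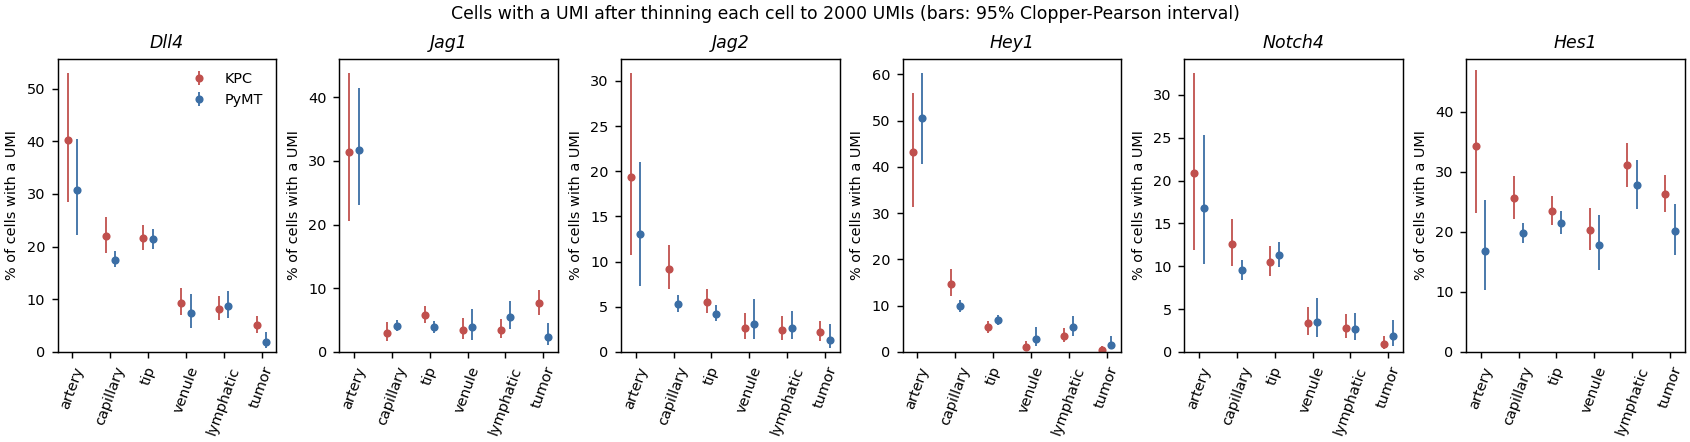
Share of cells with a UMI after thinning each cell to 2000 UMIs (y axis, percent, a separate linear scale per gene) for 6 members in 6 classes (x axis), KPC in red and PyMT in blue, with 95% Clopper-Pearson intervals as bars. The artery intervals of Hey1 and Jag1 lie above those of every other class shown in both libraries, with Hey1 in 43.3% and 50.5% of artery cells.

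Dll4 did not set tip cells, the leading cells of sprouts, apart from capillary cells in KPC, and was slightly higher in tip cells in PyMT. The log2 ratio of tip over capillary cells for Dll4 was 0.02 (-0.14 to 0.19) in KPC and 0.24 (0.14 to 0.35) in PyMT. Of 8 members 0 were called higher and 0 lower, where 0.2% and 0.633% of 9481 genes were called. The member with the clearest shift was Hey1, lower in tip cells by log2 ratios of -1.31 (-1.55 to -1.07) in KPC and -0.68 (-0.85 to -0.51) in PyMT. Notch1 was also lower, at -0.62 (-0.80 to -0.44) and -0.27 (-0.41 to -0.13). Notch4 differed by less than its counting error in both libraries, with 0.17 (-0.06 to 0.41) and 0.15 (-0.01 to 0.31). Jag1 was at 36.2 CPM (32.3 to 40.5) in KPC tip cells against 16.3 in capillary cells, a log2 ratio of 1.16 (0.75 to 1.59), but at 20.7 CPM (18.3 to 23.3) against 22.4 in PyMT, where the ratio was -0.12 (-0.36 to 0.13). At a 1.5-fold threshold 1 member, Hey1, was called lower, but no share of all genes is given at that threshold. Of the tip cells, 14.2% in KPC and 40.1% in PyMT also met the capillary gate, which came later in the order.

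Venule cells held less of the ligand Dll4 and of the target Hey1 than capillary cells in both tumors. Dll4 was at 44.7 CPM (37.4 to 53.1) in KPC and 46.6 CPM (36.3 to 58.9) in PyMT venule cells, log2 ratios over capillary cells of -1.47 (-1.76 to -1.19) and -1.11 (-1.48 to -0.76). Hey1 had ratios of -3.12 (-3.73 to -2.56) and -2.25 (-2.99 to -1.60). Both were called lower, and 0 members higher, where 0.88% of 8405 genes were called lower and 1.17% higher. Notch4 just missed the rule, with -1.29 (-1.70 to -0.89) in KPC and -0.99 (-1.51 to -0.51) in PyMT, at levels of 23.6 and 24.6 CPM. Jag2 was at 12.98 and 14.6 CPM, with ratios of -1.82 (-2.37 to -1.30) and -0.69 (-1.39 to -0.07). Hes1 was lower by less than 2-fold, at -0.64 (-0.84 to -0.44) and -0.57 (-0.84 to -0.30). Jag1 did not separate the classes, with 0.26 (-0.29 to 0.81) and 0.06 (-0.49 to 0.57), and Rbpj was at 0.07 (-0.41 to 0.55) in KPC and 0.79 (0.30 to 1.26) in PyMT. Of the venule cells 22.2% in KPC and 52.4% in PyMT also met another vessel gate. Without such cells the ratio of Dll4 in PyMT was -0.75 and only Hey1, at -3.21 and -2.38, was called. Shares of all genes are not given for that setting.

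Against artery cells, 5 of 8 members were called lower in venule cells (Notch4, Dll4, Jag1, Jag2, Hey1) and 0 higher, where 2.96% of 4966 genes were called lower and 2.7% higher. The medians of the 8 were -2.37 in KPC and -2.06 in PyMT, beside 0.003 and 0.05 over all genes tested. Jag1 had log2 ratios of -3.31 (-3.85 to -2.77) and -3.15 (-3.75 to -2.58), and Dll4 of -2.58 (-2.98 to -2.17) and -2.46 (-2.90 to -2.03). After thinning and gating again 0 members were called here, although all 5 stayed past 2-fold in both libraries, because none of them reached the minimum of 50 UMIs in both. Shares of all genes are not given for that setting. The log2 ratios in that setting were -3.29 and -2.34 for Notch4, -3.26 and -2.65 for Dll4, -4.78 and -2.75 for Jag1, -3.56 and -3.03 for Jag2 and -6.44 and -4.65 for Hey1.

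**Figure D3:**
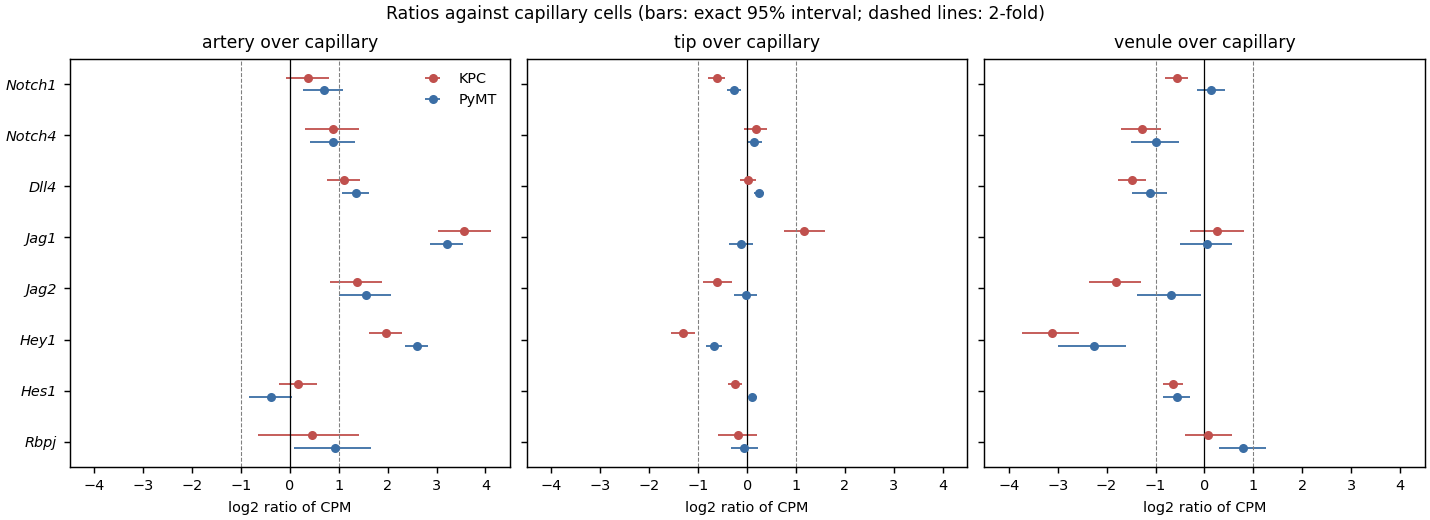
Log2 ratio of CPM (x axis) of artery, tip and venule cells over capillary cells for the 8 members with enough UMIs (y axis), KPC in red and PyMT in blue, with exact 95% intervals as bars and dashed lines at 2-fold. Jag1, Hey1, Dll4 and Jag2 lie to the right in artery cells, and Hey1, Dll4 and Notch4 lie to the left in venule cells, where Hey1 is at -3.12 and -2.25.

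Lymphatic cells, which passed the podoplanin depletion in the numbers given above, held Notch1 at 102 CPM (91.3 to 113) in KPC and 91.5 CPM (80.3 to 104) in PyMT. Hes1 in lymphatic cells, at 239 CPM (223 to 256) and 175 CPM (160 to 192), was above its capillary level by log2 ratios of 0.48 (0.33 to 0.63) and 0.54 (0.39 to 0.69). Notch4, at 12.7 and 17.2 CPM, and Hey1, at 25.7 and 28.5 CPM, were the 2 members called lower than in capillary cells, with ratios of -2.17 and -1.50 for Notch4 and of -1.69 and -1.08 for Hey1. Called lower were 3.76% of 8880 genes, and higher 4.9%, with 0 members among the latter. With the highest 8% of doublet scores left out 4 members were called lower, and with the stricter filter on cells or the vessel gates in the opposite order 1 was, Hey1 being at -0.95 and -0.84 in PyMT. For these settings no share of all genes is given.

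Notch3 marked the pericyte-gated cells. It was at 196 CPM (160 to 239, 100 UMIs) in KPC and 182 CPM (110 to 285, 19 UMIs) in PyMT pericytes, and at 2.52 and 0.71 CPM in capillary cells. KPC fibroblasts held it at 8.47 CPM (5.17 to 13.1, 20 UMIs), above the capillary interval (1.15 to 4.79). PyMT fibroblasts held 0 UMIs, where 3 counts would have been 23.6 CPM. Artery cells held 0 Notch3 UMIs in both libraries, where 3 counts would have been 9.33 and 6.15 CPM. Against capillary cells the log2 ratio of Notch3 was 6.28 (5.30 to 7.45) and 8.01 (6.80 to 9.34). The 50-UMI rule left Notch3 out in PyMT. Among the 8 members it kept, 0 were called higher and 0 lower in pericytes over capillary cells, where 2.05% and 2% of 7332 genes were. Capillary cells alone met the minimum for these 8, and PyMT pericyte-gated cells held 3 Jag1, 3 Jag2, 6 Hey1 and 1 Rbpj UMIs. The 0 calls thus do not show equal levels. With a minimum of 10 UMIs, for which no share of all genes is given, Notch3 was called. Cells of no gate held 45 further Notch3 UMIs in KPC, 43 of them in the 242 cells with a UMI of Rgs5 or Higd1b (75.7 CPM, against 0.19 CPM in the rest). In PyMT 8 of 15 such UMIs lay in 97 cells with a UMI of those genes (25.02 against 0.34 CPM).

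Because pericyte-gated cells carried endothelial UMIs, the KPC pericytes were also divided by whether they held a UMI of Pecam1, Cdh5 or Cldn5, a division chosen after their marker levels had been seen. The 34 cells with none of these 3 genes (median 2282.5 UMIs) held Notch3 at 302 CPM (199 to 439, 27 UMIs), against 174 CPM (136 to 218) in the 85 cells with any of them (median 4056 UMIs). Jag1 was at 157 CPM (85.6 to 263, 14 UMIs) against 49.98 CPM (30.9 to 76.4). Hes1 was at 347 CPM (235 to 492, 31 UMIs) against 217 CPM (174 to 266), with intervals that overlapped. Dll4, Notch4 and Jag2 had 0 UMIs in the 34 cells, where 3 counts would have been 33.5 CPM, and were at 90.4, 54.7 and 19.0 CPM in the 85 cells. The upper bound of 41.2 CPM for Dll4 lay below its lower bound of 64.0 CPM in the 85 cells, while the intervals of Notch4 and Jag2 overlapped between the sets. Notch3, Jag1 and Hes1 were thus found in pericyte-gated cells with no UMI of Pecam1, Cdh5 or Cldn5, and Dll4 was not detected in them. Notch1 (55.9 CPM, 18.1 to 130, 5 UMIs), Rbpj (3 UMIs) and Hey1 (1 UMI) were also found in these cells. These 34 cells still held the endothelial gene Egfl7 at 168 CPM (15 UMIs) and 1 UMI of Tie1, against 935 CPM of Egfl7 in the 85 cells. PyMT had only 4 such cells, too few to give levels.

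Hey2, a close relative of Hey1, was near the limit of detection, with 49 UMIs in all kept KPC cells and 12 in all kept PyMT cells. Its highest levels were 11.8 CPM (4.32 to 25.6) in KPC pericytes and 9.60 CPM (0.24 to 53.5) in PyMT pericytes, resting on 6 UMIs and 1 UMI. In artery cells it was at 6.22 CPM (0.75 to 22.5, 2 UMIs) in KPC and 8.20 CPM (2.23 to 21.0, 4 UMIs) in PyMT. Differences of Hey2 between classes were not detectable at this depth except where the intervals parted. Parted pairs included KPC pericytes over tip cells (0.35 CPM, 0.07 to 1.03) and over venule, lymphatic, Krt8/Krt18-gated and no-gate cells. KPC capillary cells (2.52 CPM, 1.15 to 4.79, 9 UMIs) also lay above KPC tip cells. In PyMT, artery cells parted from tip cells (0.23 CPM, 0.05 to 0.67) and capillary cells (0 UMIs, upper bound 0.29 CPM). They also parted from PyMT cells of no gate (0.14 CPM, 0.03 to 0.41). The KPC artery interval overlapped those of KPC tip and capillary cells. Rbpj was highest in PyMT Krt8/Krt18-gated cells, at 108 CPM (96.1 to 120), with 40.3 CPM (36.6 to 44.2) in the KPC cells of that gate and 16.6 to 32.8 CPM in the artery, capillary, tip, venule and lymphatic cells of both libraries.

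Between the tumors, 2 of the members tested passed 2-fold in 1 of the classes compared, Hes1 in artery cells and Notch3 in cells of no gate. In capillary cells 0 of 8 members differed by 2-fold or more, where 13.2% of 9988 genes did. The nearest was Jag2, 45.7 CPM in KPC against 23.7 CPM in PyMT, a log2 ratio of KPC over PyMT of 0.95 (0.66 to 1.23). In tip cells 0 of 8 members and 5.33% of 10281 genes differed so, with Jag1 highest at 0.81 (0.57 to 1.05). In venule cells 0 of 7 members and 3.57% of 7451 genes did. In artery cells 1 of 7 members did, Hes1 with 1.06 (0.49 to 1.65), where 5.94% of 2679 genes did. Hes1 was not higher in KPC in artery cells alone. By less than 2-fold, it was also higher in KPC capillary (0.51, 0.37 to 0.65), lymphatic (0.45, 0.28 to 0.62) and venule cells (0.44, 0.13 to 0.75). The same held for cells of no gate (0.31, 0.23 to 0.39) and tip cells (0.17, 0.07 to 0.28). With the highest doublet scores or the cells of several gates left out, 0 members were called in artery cells. Shares of all genes are not given for these settings. Among cells of no gate 1 of 9 members, Notch3, differed by 2-fold or more, where 11.9% of 11308 genes did. It was at 3.99 CPM in KPC and 0.71 CPM in PyMT, with a ratio of 2.50 (1.63 to 3.45). Cells with a UMI of Rgs5 or Higd1b, where most of the KPC Notch3 UMIs lay, numbered 242 and 97 in this class, and their part in the ratio was not tested. In lymphatic cells 0 of 8 members and 2.39% of 8631 genes did. Dll4 in artery cells differed by 0.06 (-0.35 to 0.47) and Hey1 by -0.17 (-0.53 to 0.19).

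Cells were also divided by a UMI of Nr2f2 within the capillary and the tip class, since COUP-TFII is the factor under study. Nr2f2 itself was higher in venule than in capillary cells, with log2 ratios of 1.93 (1.65 to 2.22) and 1.56 (1.31 to 1.80). In tip cells with a Nr2f2 UMI, Dll4 was at 107 CPM against 132 CPM without in KPC and at 97.9 against 126 CPM in PyMT, log2 ratios of -0.30 (-0.52 to -0.09) and -0.36 (-0.55 to -0.18). Hes1 was at -0.24 (-0.44 to -0.04) and -0.33 (-0.51 to -0.16), and Hey1 at -0.41 (-0.85 to 0.02) and -0.49 (-0.84 to -0.15). In capillary cells Dll4 was at -0.14 (-0.53 to 0.23) and -0.31 (-0.53 to -0.10), Hes1 at -0.29 (-0.63 to 0.03) and -0.25 (-0.45 to -0.05), and Hey1 at -0.33 (-0.83 to 0.14) and -0.47 (-0.77 to -0.19). Dll4, Hey1 and Hes1 were thus lower in Nr2f2-positive cells in each of the 4 divisions, by amounts under 2-fold, and the interval left 0 in both libraries for Dll4 and Hes1 in tip cells. Notch1 and Notch4 lay between -0.14 and 0.12, with intervals that held 0. Jag1 went the other way in KPC tip cells, at 49.8 against 31.8 CPM, a ratio of 0.65 (0.29 to 0.997), and was at 0.09 (-0.33 to 0.49) in PyMT.

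Of 8 members 0 were past 2-fold either way in these divisions. Over all genes, 0% of 6934 were higher and 0.115% lower in capillary cells with a Nr2f2 UMI, and 0% of 8722 were higher and 0.0115% lower in tip cells. These shares are for 2-fold. No share of all genes is given for smaller shifts such as those of Dll4, Hey1 and Hes1. Cells with a Nr2f2 UMI were deeper, with medians of 4107 against 1799 UMIs in KPC capillary cells, 5236.5 against 4077.5 in PyMT capillary cells, 7749 against 4993.5 in KPC tip cells and 7042 against 5525.5 in PyMT tip cells. The part of this depth in the ratios was not tested. Of the 2 venule gate genes, Selp was higher with a Nr2f2 UMI, with log2 ratios of 1.64 and 0.66 in capillary cells and 0.79 and 0.95 in tip cells. Ackr1, the other, was at -0.58 and 0.63 in capillary cells and 1.14 and 0.43 in tip cells. Its interval held 0 in all but KPC tip cells, and it had too few UMIs for the rule. Capillary and tip cells are cells that had failed the venule gate. The class rule thus capped the summed UMIs of Selp and Ackr1 in each cell, whatever its depth. For this reason these ratios cannot show whether cells with a Nr2f2 UMI were more like venule cells.

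**Figure D4:**
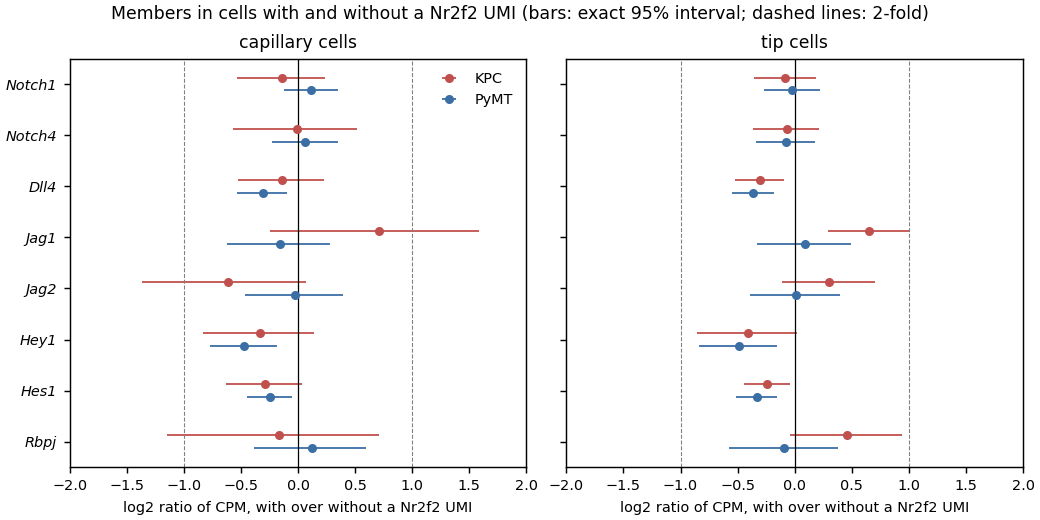
Log2 ratio of CPM (x axis) in cells with over cells without a Nr2f2 UMI for 8 members (y axis), in capillary cells (left) and tip cells (right), KPC in red and PyMT in blue, with exact 95% intervals as bars and dashed lines at 2-fold. Dll4, Hey1 and Hes1 lie left of 0 in both classes and libraries, Dll4 at -0.30 and -0.36 in tip cells, and no point passes 2-fold.

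Within a class, Dll4 and each other member were compared by whether the share intervals of cells with and without Dll4 overlapped. No other member had separate intervals in both libraries. This rule is stricter than counting error of a difference, so overlap does not show equal shares. The differences themselves were not tested. After thinning to 2000 UMIs, 23.5% (16.5 to 31.6) of the 132 KPC capillary cells with a Dll4 UMI also held Hey1, against 12.3% (9.42 to 15.6) of the 465 without. In PyMT the shares were 12.5% (9.48 to 16.1) and 9.31% (8.06 to 10.7), with intervals that overlapped. Notch4 was found in 16.1% (12.7 to 20.0) of PyMT tip cells with Dll4 and 10.0% (8.57 to 11.7) of those without, and in 11.6% (7.996 to 16.0) and 10.2% (8.40 to 12.3) in KPC. In capillary, tip and artery cells alike, 0 of the other members had an interval above that of Dll4-negative cells in both libraries. How many of all genes would pass this rule was not computed. Artery cells with Dll4 numbered only 27 in KPC and 33 in PyMT, so the 0 says little there.

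Among 39 further genes of the pathway, the target and feedback inhibitor Nrarp showed the artery pattern. It was at 233 CPM (183 to 292) in KPC and 400 CPM (346 to 460) in PyMT artery cells. Tip cells held 112 and 178 CPM and venule cells 75.5 and 97.2 CPM, so Nrarp was called higher in artery over tip cells (log2 ratios 1.06 and 1.17) and lower in venule over artery cells (-1.63 and -2.04). Over all genes, 4.32% of 8833 were called higher in artery over tip cells, so 1 call among 29 list genes is no excess there. In venule over artery cells 2.96% of 4966 genes were called lower. Over capillary cells its ratios were 0.53 (0.16 to 0.88) and 1.33 (1.11 to 1.54), which missed the rule in KPC. No other gene of the list was called between artery and capillary (26 tested), tip and capillary (30 tested), venule and artery (14 tested) or artery and tip cells (29 tested). In venule over capillary cells 1 of 29 tested was called, Psen2, a catalytic subunit of gamma-secretase, which was higher with 1.11 (0.56 to 1.68) and 1.46 (1.01 to 1.90). Over all genes, 1.17% of 8405 were called higher in this comparison.

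Lymphatic cells had the most calls in this list, with 3 of 30 tested genes called higher and 2 lower than in capillary cells. Over all genes, 4.9% of 8880 were called higher and 3.76% lower. These were also the largest all-gene shares of the class comparisons with capillary cells. The receptor Notch2 was at 18.7 and 16.1 CPM in lymphatic cells against 1.12 and 1.10 CPM in capillary cells, log2 ratios of 4.06 (2.63 to 5.98) and 3.87 (2.97 to 4.86). Psen2, with 1.89 and 1.72, and Aph1b, another gamma-secretase subunit, with 2.05 and 1.63, were the other genes called higher. Mfng, a glycosyltransferase that modifies Notch receptors, was lower with -2.59 (-2.97 to -2.23) and -2.46 (-2.81 to -2.13), and Nrarp with -1.86 and -1.74. In pericytes the target Heyl was at 41.2 CPM (25.5 to 63.0, 21 UMIs) in KPC and 48.0 CPM (15.6 to 112, 5 UMIs) in PyMT, against 0.56 and 0.16 CPM in capillary cells and 0 UMIs in artery cells. Heyl was not particular to pericytes, as KPC fibroblasts held 41 UMIs of it at 17.4 CPM (12.5 to 23.5). PyMT fibroblasts held 2 UMIs at 15.7 CPM (1.90 to 56.7). Of 26 list genes tested in pericytes over capillary cells, Dtx3 passed as higher and Dll1 as lower, but in PyMT these rested on 3 and 0 pericyte UMIs, and their intervals there held a ratio of no difference. Over all genes, 2.05% of 7332 were called higher and 2% lower in this comparison.

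The genes whose levels over the 9 classes were most like those of Dll4, by the mean over both libraries of Pearson's r of log2(CPM + 1), were Efna1 (0.96), Jag2 (0.96), 8430408G22Rik (0.96), Itsn2 (0.95) and Gabarapl2 (0.95), out of 9460 genes. For Hey1 they were Oaz2 (0.94), Efnb2 (0.92), Sh2b3 (0.91), Jag2 (0.90) and Rbp7 (0.90). For Notch3 they included Tmem38b (0.89), Fem1a (0.89), Bcas3 (0.88) and Mnd1 (0.88), out of 9461. The 9 classes share a library and differ in depth, the pericyte class holds few cells, and these r are a description. Among the members, Dll4 and Hey1 had an r of 0.86, and Dll4 and Rbpj one of -0.63.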

How the data were processed

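The authors aligned the reads to mm10 and deposited UMI counts per gene and barcode as whole numbers, without normalization and with every barcode called a cell (Cell Ranger 3.0 per the labels, 3.0.2 in the matrix header). The paper's methods name both v2 and v3 chemistry. The members and gene lists were chosen with earlier results of these data known. From the counts, barcodes were kept from 500 genes up and below 10% mitochondrial UMIs, and classed by the gates given above. UMIs were summed per class and library and given as CPM with exact Poisson intervals, ratios with exact binomial intervals conditional on both sums, and shares with Clopper-Pearson intervals at 95% (Python 3.11.15, numpy 2.4.6, scipy 1.17.1, scanpy 1.11.5). For 0 counts, the level of 3 counts is given. No doublets were removed, and Scrublet scores (expected rate 0.08) served as an alternative only. The total UMIs of a class set its precision, least for PyMT pericytes. The script for ratios was tested on simulated counts. Named genes are the members, every gene of the 39-gene pathway list past 2-fold in both libraries in a comparison, Nr2f2, the 5 genes most similar in pattern to Dll4, Hey1 and Notch3 among those with at least 200 UMIs per library, and class markers. Of these, 1 gene is not reported here. Heyl, Selp and Ackr1 were added after their values were seen. Overlapping genes were counted on the opposite strand of Notch3 and Rbpj, with at most 1 UMI. Alternatives covered the filter, gate order and thinning, doublets, cycling cells, weighting, scaling, UMI minimum and fold.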

Additional observations from a re-analysis of the deposited data

Results flagged for a closer look

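The Notch target Hes1 stood out because its difference between artery and tip cells had opposite signs in the tumor models. In KPC the log2 ratio of artery over tip cells was 0.41 (95% interval 0.02 to 0.78), at 193 CPM in artery cells against 145 CPM in tip cells. In PyMT the ratio was -0.48 (-0.94 to -0.05), at 92.3 CPM against 129 CPM. Both intervals left 0, on 62 and 45 artery UMIs, and cover counting error only. The difference between the tumor models was not tested, and tumor model, library and mice cannot be told apart. The 3 ligands, Hey1, Notch1 and Notch4 had ratios of the same sign in both libraries in this comparison.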

How the results depend on the processing

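No paired analysis was possible because each tumor model had 1 library. The counts of members called changed by more than 1.5 times as follows. With the stricter filter on cells (1000 genes, 5% mitochondrial UMIs), 1 was lower in lymphatic cells. With the vessel gates in the opposite order, 1 was lower in venule and 1 in lymphatic cells than in capillary cells, and 0 were higher in KPC over PyMT artery cells. With cells of several gates left out, 1 was lower in venule over capillary cells and 0 were higher in KPC artery cells. With gates and levels after thinning to 2000 UMIs, 1 was higher in artery over capillary cells, 0 were lower in venule over artery cells, 2 were higher in artery over tip cells, 1 was lower in pericytes, 0 were higher in KPC artery cells and 1 was lower in KPC tip cells. With the highest 8% of doublet scores left out, 4 were lower in lymphatic cells and 0 higher in KPC artery cells. With cycling cells left out, 2 were higher in KPC artery and 1 in KPC capillary cells. With cells weighted equally, 4 were lower in venule over capillary cells, 0 were higher in KPC artery and 1 in KPC capillary cells. With a minimum of 10 UMIs, 1 was lower in tip cells and 1 higher in pericytes. At 1.5-fold, 1 was lower in tip and 4 in venule cells, 7 were higher in artery over tip cells, and 4 were lower in lymphatic cells. No shares of all genes are given for these alternative settings, so their counts have no background beside them. Unthinned, 5 members in place of 3 had an artery share above the capillary share. The cause was not tested, beyond the fewer cells that thinning leaves and the lower thresholds themselves. Of the members' log2 ratios under these alternatives, 1176 moved by less than counting error or kept their value and 83 moved further, 45 of these after thinning and gating again, and no called ratio changed sign. Median-of-ratios scaling moved 0 counts past 1.5 times. Artery cells (104 and 126) and pericytes (119 and 23) limit the precision, and the alternatives for KPC over PyMT and for Nr2f2 were added after the data were seen.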
